A study of Mus musculus with 4 samples.

Results

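Chemokines and their receptors were followed as a family of 46 genes, 31 ligands and 15 receptors, on 4 microarrays of lamina propria lymphocytes (LPLs), immune cells of the layer that lies beneath the gut epithelium. The members were listed by symbol, and every non-control probe whose RefSeq accession belongs to a listed symbol was kept. This found 45 of the 46 genes through 52 of 39429 probes. Of the 31 ligands 30 were matched, no probe was matched for Cxcl11, and all 15 receptors were matched. A single probe stood for 39 of these genes, 5 genes had 2 probes and 1 had 3. Across the whole array 20619 genes were matched through 27234 probes.

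The cells came from C57BL6 mice on day 10 of exposure to dextran sulfate sodium (DSS), which damages the epithelium of the colon and is used to induce colitis. Both genotypes, wild type and Stat4-/-, received either DSS alone or DSS together with leukemia inhibitory factor (LIF), a cytokine of the interleukin-6 family, which gives 4 groups. Every group had 1 array and 5 mice, and whether mice were pooled is not stated. The type of Stat4 allele and the dose of LIF are not given in the sources used here. All 4 groups had received DSS, and mock-treated mice are not analysed here. STAT4 is a transcription factor that acts downstream of interleukin-12, and LIF signals mainly through STAT3.

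Chemokines are small secreted proteins that bind G protein-coupled receptors on leukocytes and direct where those cells move and stay. Most inflammatory chemokines are shared among several receptors, whereas a few ligands, such as Ccl25, Cxcl16 and Xcl1, have a receptor largely to themselves. In the gut, Ccl25 with Ccr9 and Ccl28 with Ccr10 guide lymphocytes to the mucosa, Cxcl1, Cxcl2 and Cxcl5 attract neutrophils through Cxcr2, Ccl2 and its relatives attract monocytes through Ccr2, and the interferon-inducible Cxcl9 and Cxcl10 attract activated T and natural killer cells through Cxcr3.

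A level is the log2 processed signal less the 75th percentile of log2 signals on the same array, so 0 equals that percentile. Levels are always given in the same order, first wild type and then Stat4-/-, and within each genotype DSS before DSS and LIF. A probe that the scanner software did not mark as well above background is called below background. Its printed level is then only a dim reading, and the true level can lie above it. Levels were compared across arrays within a probe and never between probes, whose brightness differs for reasons of chemistry. A member was called higher or lower at a difference of at least 2-fold, a log2 difference of 1. A member below background on 1 array received a bound, written as "at least", which sets the bright level against the dim probe's own level or the dimmest level above background on that array, whichever is higher. That dimmest level was −3.79, −1.49, −2.13 and −2.04 on the 4 arrays. Where the probe's own dim level was the higher, the fold is not a strict limit. This applies to Xcl1, and to Ccl12 in Stat4-/- with DSS and LIF. No difference could be checked against replicates, since each group had 1 array, and no p-values are given. The error that the scanner software assigned to a member probe above background had a median of 0.15 and reached 0.32 on the log2 scale, and the spread between mice is unknown.

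Brightness, scans and marker genes of the arrays bear on all the results. The processed signal had a 75th percentile of 122.9, 23.8, 45.3 and 43.3, and 24339, 14823, 17709 and 18007 of 39429 probes were well above background. The wild-type array with DSS and LIF was the dimmest and stood apart, with a correlation of between 0.80 and 0.82 with each other array over 12674 probes, whereas the others correlated with each other up to 0.98. Results that rest on it are LIF in wild type and genotype under DSS and LIF; genotype under DSS and LIF in Stat4-/- do not use it. The 2 arrays of mice given DSS alone carry the same scan number, scan 1, whereas the Stat4-/- array with LIF is scan 2 and the wild-type array with LIF is scan 3, so scan and group cannot be told apart except in the genotype comparison under DSS. The level of Stat4 was −0.49, 0.21, 0.31 and −0.48 and did not separate the genotypes. Whether the probe lies in the deleted part is not known here, so Stat4-/- below means the arrays with that label. The T cell genes Cd3e and Cd4 were above background on all 4 arrays, Cd4 with 1.93, 3.71, 1.91 and 2.11, while Ptprc, the pan-leukocyte gene, was below background in wild type with DSS and LIF. Epcam, which marks epithelium, was also above background on all 4 arrays, with 2.22, −0.42, 1.29 and 2.31.

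Of the 45 matched members 22 were above background on all 4 arrays, 14 ligands and 8 receptors. Another 8 were so on 3 arrays, 6 on 2 and 3 on 1. The 6 members below background everywhere were Ccl20, the ligand of Ccr6, Ccl22, a ligand of Ccr4, Cxcl14, Cxcl15, Ccr4 itself and Cxcr2, the neutrophil receptor for Cxcl1 and Cxcl2. By array, 38, 27, 34 and 28 members were above background, in the same order as the arrays' brightness.

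**Figure D1:**
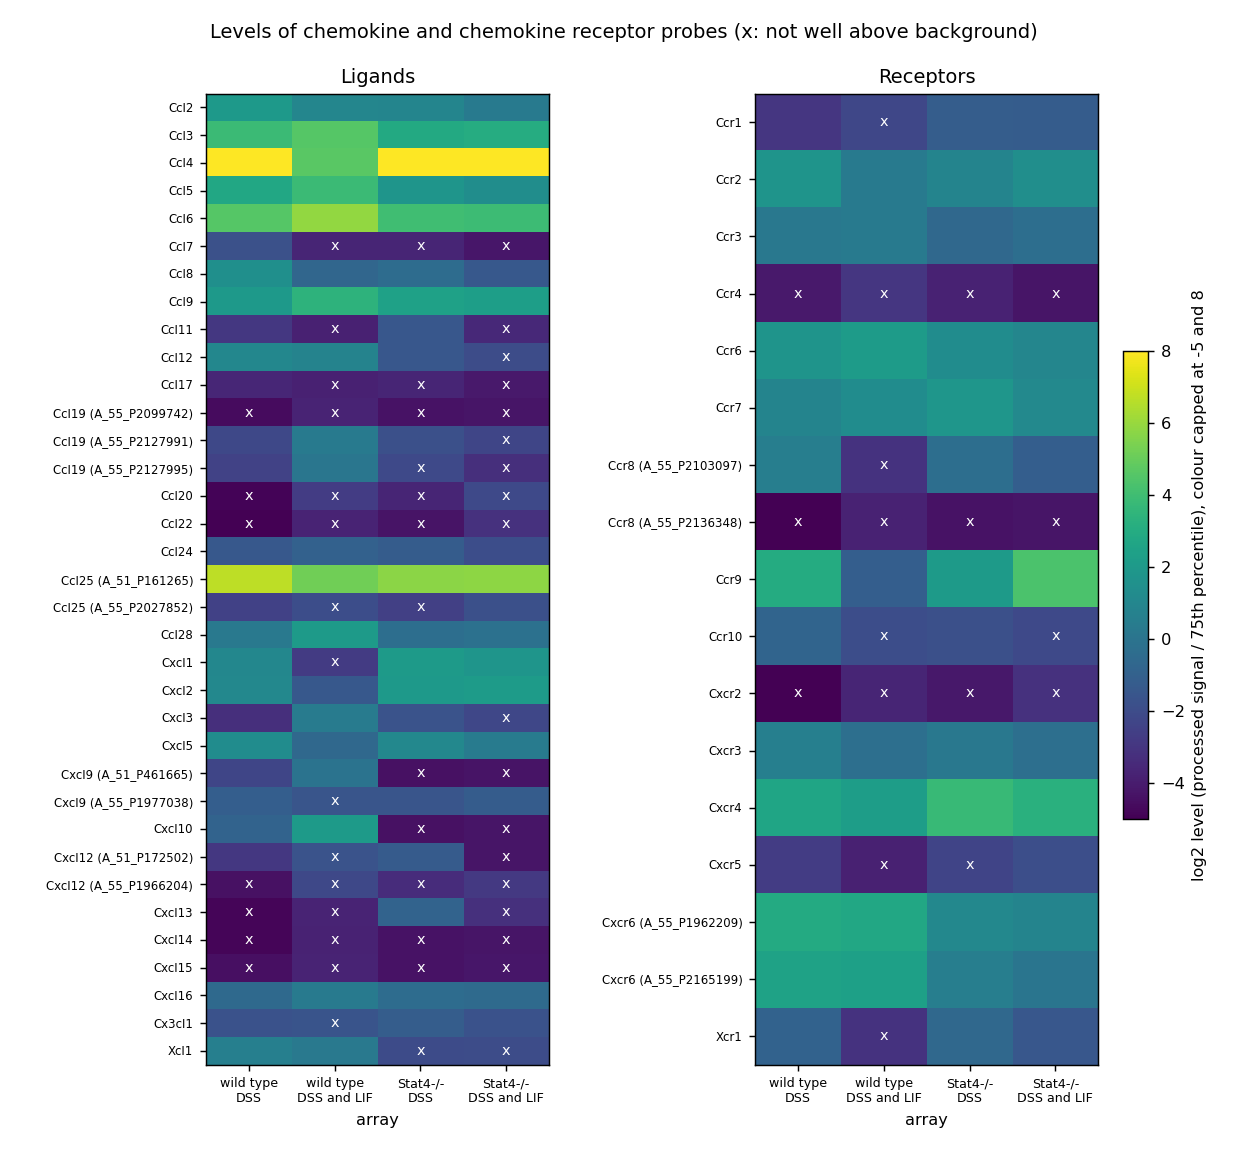
Level of each member probe (rows; log2 of processed signal over the array's 75th percentile, colour) on the 4 arrays (columns), ligands on the left and receptors on the right. A white x marks a probe not well above background. Ccl4 was bright on 3 arrays and fell to 4.66 in wild type with DSS and LIF, and Cxcl10 was above background in both wild-type arrays alone.

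The promoters of 4 ligands on chromosome 5 are printed because Cxcl9 and Cxcl10 lie beside each other in the genome and were brightest in wild type with DSS and LIF (Cxcl9 by 1 of its 2 probes), whereas Cxcl1 and Cxcl2 lie beside each other and were dimmest there. Each sequence is the 250 bases before the RefSeq start of the gene, read 5′ to 3′ on the gene's strand, with coordinates on GRCm38.p6. Capitals mark matches to GGG and CC with any 5 bases between them, a form of the NF-kB site, and in Cxcl10 also the match to GAAA and GAAA with any 2 bases between them, the core of the interferon-stimulated response element.
Cxcl9 (chr5:92328080-92328329, minus strand): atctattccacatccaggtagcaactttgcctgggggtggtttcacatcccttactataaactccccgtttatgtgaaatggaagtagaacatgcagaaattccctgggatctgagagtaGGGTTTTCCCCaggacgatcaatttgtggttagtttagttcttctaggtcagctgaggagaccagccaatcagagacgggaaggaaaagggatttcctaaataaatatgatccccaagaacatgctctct
Cxcl10 (chr5:92348890-92349139, minus strand): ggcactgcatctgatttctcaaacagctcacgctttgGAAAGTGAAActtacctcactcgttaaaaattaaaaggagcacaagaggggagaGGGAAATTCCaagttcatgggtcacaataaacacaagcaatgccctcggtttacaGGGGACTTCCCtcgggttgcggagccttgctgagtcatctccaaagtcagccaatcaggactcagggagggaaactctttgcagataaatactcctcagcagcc
Cxcl1 (chr5:90890995-90891244, plus strand): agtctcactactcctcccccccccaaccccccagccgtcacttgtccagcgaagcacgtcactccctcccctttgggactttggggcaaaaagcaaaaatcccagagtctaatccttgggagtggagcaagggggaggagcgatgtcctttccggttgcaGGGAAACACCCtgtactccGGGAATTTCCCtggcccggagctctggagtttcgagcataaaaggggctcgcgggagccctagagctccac
Cxcl2 (chr5:90903649-90903898, plus strand): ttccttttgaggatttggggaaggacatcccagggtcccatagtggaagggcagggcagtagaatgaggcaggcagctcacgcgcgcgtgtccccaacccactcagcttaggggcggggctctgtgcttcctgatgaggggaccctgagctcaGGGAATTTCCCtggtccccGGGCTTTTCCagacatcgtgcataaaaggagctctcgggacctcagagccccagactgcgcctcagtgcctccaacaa

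Both motifs, and TTCNNNGAA (N for any base) for a STAT site, were searched on both strands in the promoters of 34 members. The interferon motif was present in 2.98% of all 32851 promoters and in 3 of the 34 members, Ccl19, Cxcl10 and Cxcl14. In Cxcl10 it reads GAAAGTGAAA and spans bases 213 to 204 upstream of the start. TTCNNNGAA was found in 7.02% of all promoters and in 3 members, Ccl17, Ccr6 and Cxcl14. The NF-kB motif is loose, held by 45.8% of all promoters and by 19 of the 34 members, among them all 4 genes printed, and overlapping matches are merged in the capitals. The closely related Cxcl1 and Cxcl2 share the 14 bases GGGAATTTCCCTGG, 71 and 97 bases upstream. The longest run shared by Cxcl9 and Cxcl10 was the 11 bases CAGCCAATCAG, 68 and 57 bases upstream. A match describes the letters and says nothing of binding in these cells.

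Genotype under DSS, the comparison with both arrays from the same scan, showed members of several roles past the 2-fold limit in both directions. The members lower in Stat4-/- were Ccl2, Ccl5, Ccl8, Ccl12, Ccr10 and Cxcr6, with Cxcl10 and Xcl1 by bounds. Those higher were Ccl4, Ccl11, Cxcl1, Cxcl3, Cxcl12, Ccr1 and Cxcr4, with Cxcl13 by a bound. Before scaling, the processed signals of the measured higher members differed little between the 2 arrays. With wild type first, they were 16.5 and 16.4 for Ccl11, 16.3 and 18.9 for Cxcl12, and 12.9 and 14.2 for Cxcl3. Ccr1 had 15.7 and 20.2, Cxcl1 250 and 193, and Cxcr4 759 and 607. Their folds thus come mostly from the 75th percentiles, 122.9 and 45.3, by which the signals were divided. Of 33 measured members 7 were at least 2-fold higher in Stat4-/- and 6 lower, and bounds placed 1 more higher and 2 more lower. Among all 10500 genes measured there, 13.2% were higher and 6.81% lower. Among all genes above background on only 1 of the arrays, which a bound can place, 4.04% were placed higher and 5.52% lower, and 6 members were of this kind. The measured members called were thus 21.2% higher and 18.2% lower, and the member median was −0.41 beside 0.08 for all genes. Ligands divided 5 higher and 4 lower of 21, and receptors 2 and 2 of 12. With normexp background correction at an offset of 50, Ccr10 and all 7 higher members fell short of 2-fold, and the other 5 lower members did not.

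Under DSS and LIF, 6 of 21 measured members were higher in Stat4-/- and 7 lower, and bounds added 1 higher and 5 lower. Over all 8348 genes measured there 14.1% were higher and 31.3% lower, and of genes above background on only 1 array 19% were placed higher and 17.6% lower, with 11 members of this kind. The member median was −0.63 and that of all genes −0.45, so the lower members' share of 33.3% was near the background. Of 10 housekeeping genes measured there, 1 was higher and 6 lower in Stat4-/-, with a median of −1.54. Under DSS 1 of 11 was higher and 2 lower, with a median of 0.03. Of the lower members under DSS and LIF, Ccl3, Ccl9 and Ccr6 did not pass the housekeeping median there, whereas Ccl5, Ccl6, Ccl28 and Cxcr6 did. These values rest on the array that stood apart, and without it only the comparison under DSS remains. Ccl9, Ccl28, Cxcl5, Ccr2, Ccr6 and Cxcr4 missed 2-fold here with normexp background correction at an offset of 50, and the other 7 of 13 measured calls did not.

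LIF in wild type, which rests on the same array, had 7 of 26 measured members higher and 8 lower, with 2 more lower by bounds. Of all 8963 genes measured 34.5% were higher and 13.6% lower, and of genes above background on only 1 array 4.9% and 11% were placed higher and lower, with 11 members of this kind. The member median was 0.00 beside 0.57 for all genes. Of 10 housekeeping genes measured 3 were higher and 1 lower, with a median of 0.75. All 7 higher members were ligands, 7 of 18, and none of the 8 measured receptors was higher, while 2 receptors and 6 ligands were lower. In Stat4-/- the corresponding counts were 1 higher and 1 lower of 27 measured members, with 1 more lower by a bound. Over all 9783 genes measured 3.21% were higher and 3.08% lower. Of genes above background on only 1 array 8.57% were placed higher and 7.54% lower by bounds, 8 members were of this kind, and the medians were −0.18 for members and −0.01 for all genes. Both calls in Stat4-/-, Ccl8 and Ccr9, missed 2-fold with normexp, with and without the offset.

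**Figure D2:**
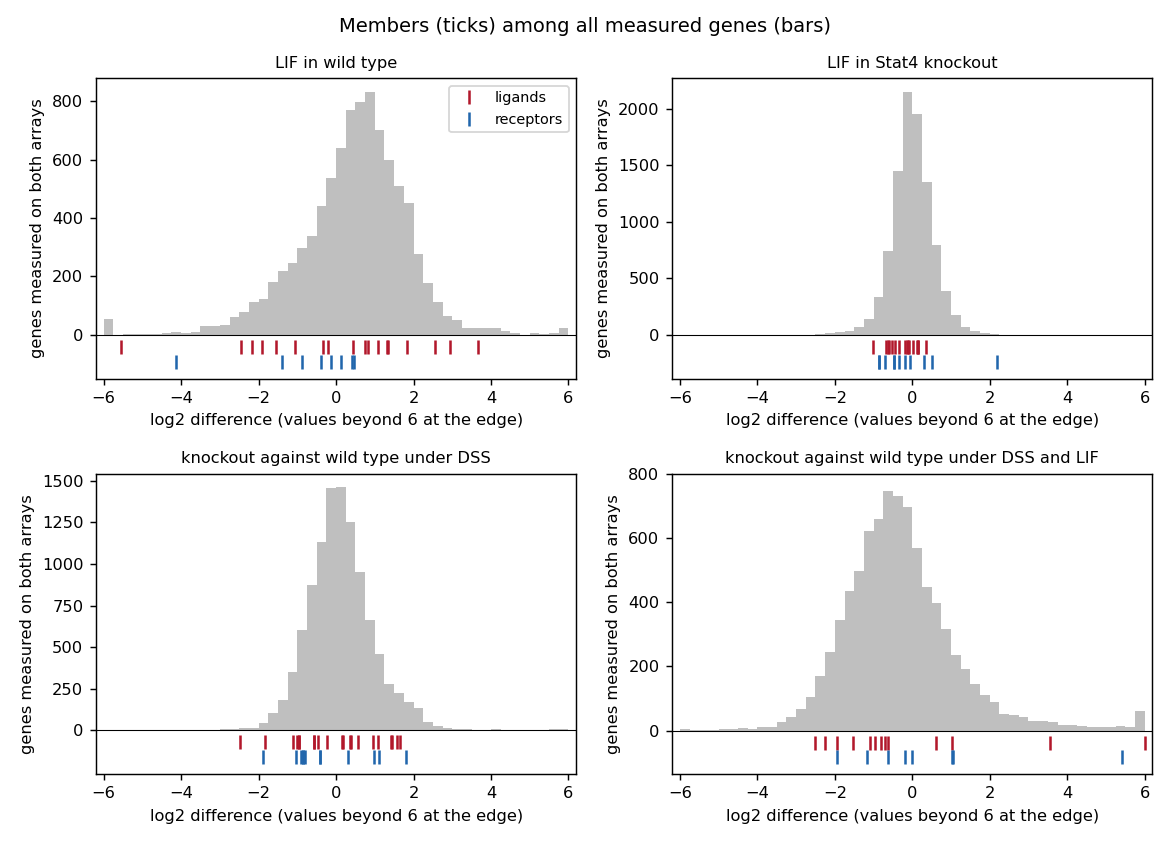
Log2 difference of all genes measured on both arrays (grey bars, number of genes) with each measured ligand (red ticks) and receptor (blue ticks) beneath, in 4 panels for the 4 comparisons. The bars for LIF in Stat4-/- are the narrowest, and the members there lie between −1.01 and 2.19.

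Cxcl10, an interferon-inducible ligand of Cxcr3 as Cxcl9 is, separated the wild-type arrays from the Stat4-/- arrays. Cxcl10 had levels of −0.84, 2.09, −4.42 and −4.28. Only the wild-type arrays were above background. In wild type Cxcl10 was 7.65-fold higher with LIF, and in Stat4-/- it was at least 2.44-fold lower than in wild type under DSS and at least 17.6-fold lower under DSS and LIF. The Cxcl9 probe A_51_P461665 had −2.30, −0.06, −4.44 and −4.29, again above background on the wild-type arrays alone, and was 4.71-fold higher with LIF in wild type. In Stat4-/- it was at least 3.95-fold lower under DSS and LIF, and under DSS its dim level gave no fold. The other Cxcl9 probe, A_55_P1977038, had −1.11, −1.60, −1.57 and −1.20, below background in wild type with DSS and LIF, so the 2 probes of this gene disagree. Their receptor Cxcr3, carried by Th1 and cytotoxic cells, had 0.62, −0.27, 0.20 and −0.28, and no difference reached 2-fold.

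Xcl1, a chemokine released by natural killer and activated CD8 T cells, had levels of 0.60, 0.27, −2.01 and −2.00. It too was above background on the wild-type arrays alone. By its own dim readings Stat4-/- was 6.09-fold lower under DSS and 4.83-fold lower under DSS and LIF. These folds are not strict limits, since the true level can lie above a dim reading. LIF in wild type differed by −0.33. Its receptor Xcr1, found on cross-presenting dendritic cells, had −0.89, −3.09, −0.59 and −1.45, and was below background in wild type with DSS and LIF alone.

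Cxcr6, a receptor of tissue-resident T and innate lymphoid cells, had levels of 2.93, 2.81, 1.05 and 0.87, and its second probe had 2.49, 2.38, 0.54 and 0.07. On both probes the 2 wild-type arrays lay above the 2 Stat4-/- arrays. The difference under DSS and LIF was 3.82-fold lower in Stat4-/- on the brighter probe and 4.96-fold on the other, against 3.85-fold on that other probe under DSS. LIF moved neither probe by more than 0.47 in either genotype. Cxcl16, the ligand of Cxcr6, had −0.53, 0.30, −0.39 and −0.50 and differed by at most 0.84 in any comparison.

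The summed level of natural killer and cytotoxic cell markers was likewise lower on the Stat4-/- arrays. Their summed level was 39.2, 87.1, 14.1 and 10.1 times the 75th percentile, with 8, 5, 6 and 5 of 9 genes above background and Klrk1 below it on all 4 arrays. Such a sum, here and below, is weighted toward bright probes. Of 6 such markers measured under DSS 3 were lower in Stat4-/- and none higher, with a median of −1.15, and of 4 measured under DSS and LIF all 4 were lower, with a median of −3.06. With LIF in wild type 1 of 5 measured was higher and none lower, with a median of 0.72. Xcl1 and the brighter Cxcr6 probe did not rise there, with differences of −0.33 and −0.12. Markers of T cells and leukocytes summed to 24.2, 38.0, 17.7 and 16.7, with 9, 8, 9 and 9 of 9 above background. The part of these markers in the levels of Cxcl10, Xcl1, Cxcr6 and Ccl5 was not tested. In bulk samples fewer cells of a type and less RNA per cell cannot be told apart, and this holds for every result here.

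Among the CXC ligands that attract neutrophils, Cxcl1 had levels of 1.02, −2.73, 2.10 and 1.76. It was below background in wild type with DSS and LIF, where it was at least 5.72-fold lower than with DSS, and Stat4-/- was 2.10-fold higher than wild type under DSS and at least 9.51-fold higher under DSS and LIF. Cxcl2 had 1.06, −1.41, 2.01 and 2.14, again lowest in wild type with DSS and LIF, where it was still above background. It was 5.53-fold lower with LIF in wild type, 11.7-fold higher in Stat4-/- than in wild type under DSS and LIF, and 1.93-fold higher under DSS, which misses the 2-fold limit. Cxcl5, an epithelial ligand of the same receptor, had 1.30, −0.60, 1.06 and 0.43. It was 3.74-fold lower with LIF in wild type and 2.04-fold higher in Stat4-/- under DSS and LIF, and the 2 arrays with DSS alone differed by −0.24.

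Cxcl3, a neighbour of these genes with the same receptor, went the other way in the comparisons that use wild type with DSS and LIF. For genotype under DSS it had the direction of Cxcl1 and Cxcl2. Its levels were −3.25, 0.43, −1.67 and −2.24, highest in wild type with DSS and LIF and below background in Stat4-/- with DSS and LIF. It was 12.8-fold higher with LIF in wild type, and Stat4-/- was 2.98-fold higher under DSS and at least 5.55-fold lower under DSS and LIF. In Stat4-/- the bound for LIF was −0.37. Cxcr2 itself was below background on all 4 arrays.

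Neutrophil markers were higher on the Stat4-/- arrays. Their summed level was 554, 383, 3227 and 2483 times the 75th percentile, with 8, 6, 9 and 9 of 11 matched genes above background and Ltf and Mmp9 below it on all 4 arrays. Of 8 measured under DSS 6 were higher in Stat4-/- and none lower, with a median of 2.74, and under DSS and LIF 5 of 6 were higher, with a median of 2.13. With LIF in wild type 1 of 6 was lower and none higher, with a median of −0.38. Whether these cells contribute to the levels of Cxcl1, Cxcl2, Cxcl3 and Ccr1 was not tested.

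Of the ligands of Ccr2, which recruit monocytes, Ccl2, Ccl8 and Ccl12 were highest in wild type with DSS. For Ccl12 the LIF difference in wild type was only −0.21. Ccl2 was printed on 10 spots of each array, and after outlier spots were removed its levels were 2.03 ± 0.072 (SD over 10 spots), 0.96 ± 0.084 (9 spots), 0.93 ± 0.095 (10 spots) and 0.33 ± 0.088 (8 spots). The spots of wild type with DSS were well separated from the others, an error that covers the array and not the mice. Ccl2 was 2.15-fold lower in Stat4-/- under DSS and 2.10-fold lower with LIF in wild type, while the differences on the other side of the design were −0.63 for genotype under DSS and LIF and −0.60 for LIF in Stat4-/-. All 4 differences were thus below 0.

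Ccl8, another ligand of this group, had 1.45, −0.71, −0.39 and −1.40. It was 3.59-fold lower in Stat4-/- under DSS, 4.47-fold lower with LIF in wild type and 2.02-fold lower with LIF in Stat4-/-, a log2 difference that was 0.086 with normexp background correction without an offset. Ccl8 was the only member at least 2-fold lower in both LIF comparisons, out of 33 above background on at least 1 array of each. Over all 11248 such genes, 0.436% were lower in both, 0.631% higher in both and 2.45% moved in opposite directions. These 2 comparisons share no array.

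Ccl12, a mouse ligand of Ccr2, had 1.01, 0.81, −1.46 and −1.99 and divided by genotype rather than by LIF. It was 5.54-fold lower in Stat4-/- under DSS. Under DSS and LIF it was below background in Stat4-/- and 6.94-fold lower there by its own dim reading, which is not a strict limit. Ccl7 had −1.77, −3.66, −3.68 and −4.20 and was above background in wild type with DSS alone, at least 1.28-fold above Stat4-/- with DSS. For LIF in wild type Ccl7 gave no fold. The receptor Ccr2 had 1.75, 0.36, 0.89 and 1.41. It was 2.63-fold lower with LIF in wild type and 2.07-fold higher in Stat4-/- under DSS and LIF, so the array that stood apart was again the lowest. Ccl2, Ccl7, Ccl8, Ccl11 and Ccl12 are neighbours on chromosome 11, and Ccl11 did not follow the others. Ccl11, an eotaxin, had −2.90, −3.80, −1.47 and −3.50, below background on both arrays with LIF, and was 2.70-fold higher in Stat4-/- under DSS. Markers of macrophages and monocytes summed to 21.5, 37.7, 22.1 and 25.4, with 7, 5, 6 and 6 of 8 genes above background and Cd163 below background on all 4 arrays, and their part in these levels was not tested.

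Among the other inflammatory CC ligands, Ccl5, made by T and natural killer cells, had levels of 2.80, 3.87, 1.80 and 1.36. Both wild-type arrays lay above both Stat4-/- arrays. It was 2.00-fold lower in Stat4-/- under DSS and 5.72-fold lower under DSS and LIF, and 2.10-fold higher with LIF in wild type. That last value was −0.042 on the log2 scale with normexp background correction at an offset of 50. Ccl3, a macrophage and T cell product, had 3.86, 4.59, 2.91 and 3.05, in the same order of genotypes, and was 2.90-fold lower in Stat4-/- under DSS and LIF and lower by a log2 difference of −0.95 under DSS.

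Ccl6 and Ccl9, myeloid ligands of Ccr1, had 4.57, 5.88, 4.00 and 3.93 and 2.04, 3.40, 2.43 and 2.31. Both were highest in wild type with DSS and LIF. With LIF in wild type Ccl6 was 2.49-fold and Ccl9 2.55-fold higher, and in Stat4-/- under DSS and LIF they were 3.88-fold and 2.12-fold lower. Against the all-gene median of 0.57, which is the general shift of that comparison, neither Ccl5, Ccl6 nor Ccl9 was 2-fold higher with LIF. Their receptor Ccr1 had −2.97, −2.23, −1.16 and −1.22, below background in wild type with DSS and LIF, and was 3.49-fold higher in Stat4-/- under DSS.

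Ccl4, an inflammatory ligand made by macrophages and T cells, had levels of 10.21, 4.66, 11.62 and 11.45. The processed signals behind them were 145678, 601, 142841 and 120950, so 3 arrays were bright and wild type with DSS and LIF was low. It was 46.9-fold lower with LIF in wild type and 111-fold higher in Stat4-/- under DSS and LIF. Under DSS it was 2.66-fold higher in Stat4-/-, although the processed signals of the 2 arrays were nearly equal, and the log2 difference was 0.46 with quantile scaling and 0.39 in the authors' deposited table. This drop was shared by other bright probes, which were examined after the value of Ccl4 was seen. Of 439 probes with a level above 8 on the other 3 arrays, 93 were at least 4 log2 units lower in wild type with DSS and LIF than on each of them, and 57 of 8963 measured genes had a LIF difference in wild type at or below that of Ccl4. Ccl3 and Ccl4 are neighbours on chromosome 11 and did not move together there.

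**Figure D3:**
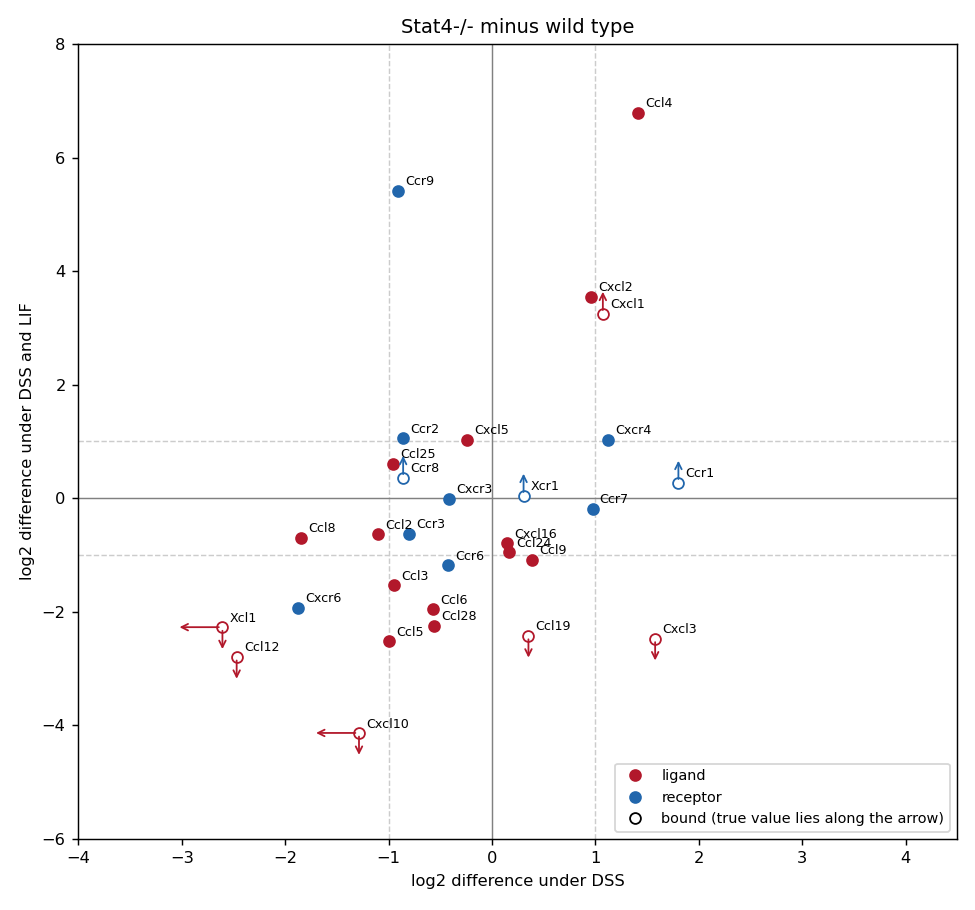
Log2 difference of Stat4-/- minus wild type under DSS (x axis) against that under DSS and LIF (y axis) for members with a measured difference or a fold from a bound in both. Filled points are measured, open points are bounds with an arrow toward larger differences, red for ligands and blue for receptors, and dashed lines mark 2-fold. The bounds of Xcl1, and that of Ccl12 under DSS and LIF, use dim readings and are not strict limits. Ccl5, Ccl12, Cxcl10, Xcl1 and Cxcr6 lie at or past 2-fold on the lower side in both.

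The 2 genotype comparisons share no array and can be set side by side. Of 32 members above background on at least 1 array of each comparison, 5 were at least 2-fold lower in both, Ccl5, Ccl12, Cxcl10, Xcl1 and Cxcr6. Another 3 were higher in both, Ccl4, Cxcl1 and Cxcr4, and Cxcl3 was higher in the first and lower in the second. Over 11147 such genes, 3.09% were lower in both, 4% higher in both and 3.16% opposite. Of these 9 members, Ccl5, Ccl12 and Cxcr6 kept a 2-fold difference under DSS in every alternative processing that gave them a value. Cxcl10 and Xcl1 were called under DSS by bounds, which were not followed through the alternatives. The bounds of Xcl1, and that of Ccl12 under DSS and LIF, use dim readings and are not strict limits.

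Among the ligands of stroma, epithelium and lymphoid tissue, Ccl19, which draws Ccr7-bearing T and dendritic cells, had −2.17, 0.38, −1.82 and −2.28 on its brightest probe, below background in Stat4-/- with DSS and LIF. It was 5.85-fold higher with LIF in wild type and at least 5.36-fold lower in Stat4-/- under DSS and LIF. A second probe had −2.43, 0.12, −2.13 and −3.26, below background on both Stat4-/- arrays, and was likewise highest in wild type with DSS and LIF, and the third was below background on all 4 arrays. Ccr7 had 0.88, 1.33, 1.85 and 1.14, and its largest difference was 1.96-fold, higher in Stat4-/- under DSS.

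Cxcl13, the ligand that gathers B cells into follicles, had −4.83, −3.73, −0.84 and −3.19 and was above background in Stat4-/- with DSS alone. It was at least 7.74-fold higher there than in wild type with DSS and at least 2.31-fold lower with LIF in Stat4-/-. Cxcl12, a stromal ligand, had −2.91, −1.67, −1.26 and −4.25 on its brighter probe, below background on both arrays with LIF and 3.14-fold higher in Stat4-/- under DSS, and its other probe was below background on all 4 arrays. Cxcr5, the B cell receptor for Cxcl13, had −2.69, −3.79, −2.35 and −1.86, above background in wild type with DSS and Stat4-/- with DSS and LIF. Cxcr4, the receptor for Cxcl12, had 2.63, 2.24, 3.74 and 3.27, and was 2.17-fold higher in Stat4-/- under DSS and 2.04-fold higher under DSS and LIF.

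By printed level Cxcl13, Cxcl12 and Ccl11 shared their brightest array, Stat4-/- with DSS. For Cxcl12 and Ccl11 this is uncertain. Both were below background in wild type with DSS and LIF, where the dimmest level above background was −1.49. Their processed signals with DSS were close in the 2 genotypes, and both missed 2-fold with normexp at an offset of 50. The B cell markers were also highest in Stat4-/- with DSS, with summed levels of 9.50, 12.6, 17.0 and 9.89 and 8, 6, 7 and 6 of 8 genes above background. Of 7 measured under DSS 3 were higher in Stat4-/- and none lower, with a median of 0.95, and of 6 measured for LIF in Stat4-/- 1 was lower, with a median of −0.73. Stromal markers summed to 8.92, 13.2, 18.8 and 12.5, with 8 of 10 above background on each array and Pdgfra and Des below it on all 4. Of 8 measured under DSS 3 were higher in Stat4-/- and none lower, with a median of 0.63, while for LIF in Stat4-/- the median was −0.50. The part of these cells in the 3 ligands was not tested.

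The gut-homing pair Ccl25 and Ccr9 differed most on the receptor's side. Ccr9, which directs lymphocytes to the small intestine and marks plasmacytoid dendritic cells, had levels of 3.02, −1.11, 2.11 and 4.30. All 4 arrays were above background, the lowest being wild type with DSS and LIF and the highest Stat4-/- with DSS and LIF. Ccr9 was 17.5-fold lower with LIF in wild type and 4.57-fold higher with LIF in Stat4-/-, the only member past 2-fold in opposite directions in the 2 LIF comparisons. Genotype under DSS differed by −0.91 and under DSS and LIF by 5.41, a 42.6-fold difference. The rise with LIF in Stat4-/-, which does not involve the array that stood apart, was 0.63 at its lowest over the alternatives and reached 2-fold in 8 of 10. Ccl25, the epithelial ligand, had 6.72, 5.18, 5.76 and 5.79 on its bright probe and was 2.91-fold lower with LIF in wild type, though not 2-fold lower when its probes were averaged. Its other probe had −2.51, −1.90, −2.52 and −1.85 and was above background on the first and last arrays alone.

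Ccl28, an epithelial ligand of Ccr10 and Ccr3, had 0.27, 2.10, −0.29 and −0.15. It was 3.55-fold higher with LIF in wild type and 4.76-fold lower in Stat4-/- under DSS and LIF. With normexp at an offset of 50 neither of its calls reached 2-fold. Epithelial markers summed to 46.1, 121.1, 43.0 and 45.2, with 11, 10, 11 and 11 of 11 genes above background. With LIF in wild type 2 of the 10 measured were higher and 3 lower, with a median of 0.33, and under DSS and LIF 3 of 10 were higher and 3 lower in Stat4-/-, with a median of −0.55. Their part in its level was not tested. Ccr10, carried by antibody-secreting cells and some T cells, had −0.80, −1.94, −1.82 and −2.15, below background on both arrays with LIF, and was 2.04-fold lower in Stat4-/- under DSS. Ccr3, an eosinophil receptor, had 0.19, 0.31, −0.61 and −0.32, and Ccl24, an eotaxin, had −1.41, −0.97, −1.24 and −1.93. Neither reached 2-fold in any comparison. Markers of eosinophils and mast cells summed to 5.23, 11.4, 2.84 and 3.33, with 8, 6, 5 and 6 of 10 genes above background and Epx and Prg2 below it on all 4 arrays. With LIF in wild type 5 of 6 measured were higher and none lower, with a median of 1.15. In Stat4-/- 4 of 6 were lower and none higher under DSS and LIF, with a median of −1.61. Under DSS 1 of 5 was lower and none higher, with a median of −0.94. Their part in the levels of Ccr3 and Ccl24 was not tested.

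**Figure D4:**
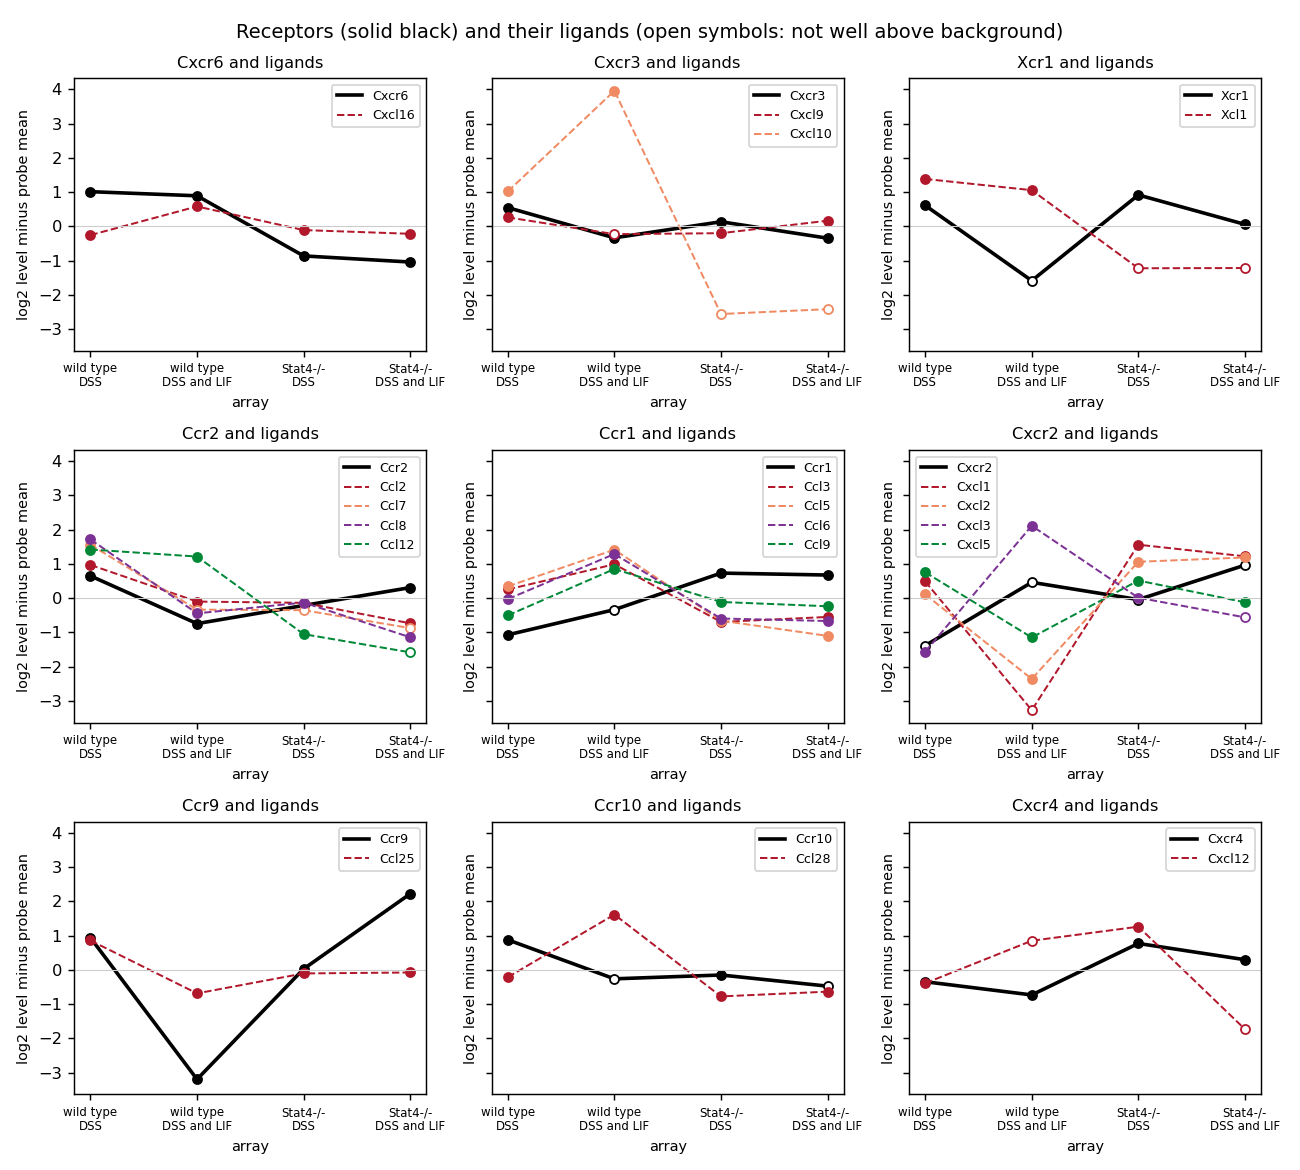
Level of 9 receptors (black) and their measured ligands (colours) on the 4 arrays, as log2 level minus that probe's mean over the arrays so that shapes and not brightness are compared. Open symbols are below background, and lines only join the values of a gene. The receptor Cxcr6 divides by genotype with its ligand Cxcl16 near 0, and Ccr9 ranges from −1.11 to 4.30 in level while Ccl25 stays between 5.18 and 6.72.

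Ccr6, Ccr8, Cx3cl1 and Ccl17 complete the members above background on some array. Ccr6, carried by Th17 and B cells, had 1.74, 2.15, 1.31 and 0.97 and was 2.27-fold lower in Stat4-/- under DSS and LIF, with a difference of −0.42 under DSS. Ccr8, a receptor of regulatory and Th2 cells, had 0.58, −3.09, −0.28 and −1.13. It was below background in wild type with DSS and LIF, at least 4.20-fold lower than with DSS, and its other probe was below background on all 4 arrays. Cx3cl1, a membrane-bound ligand of epithelium and endothelium, had −1.73, −1.60, −1.17 and −1.70, below background in wild type with DSS and LIF alone. Ccl17, a ligand of Ccr4, had −3.59, −3.79, −3.64 and −4.13 and was above background in wild type with DSS alone.

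**Figure D5:**
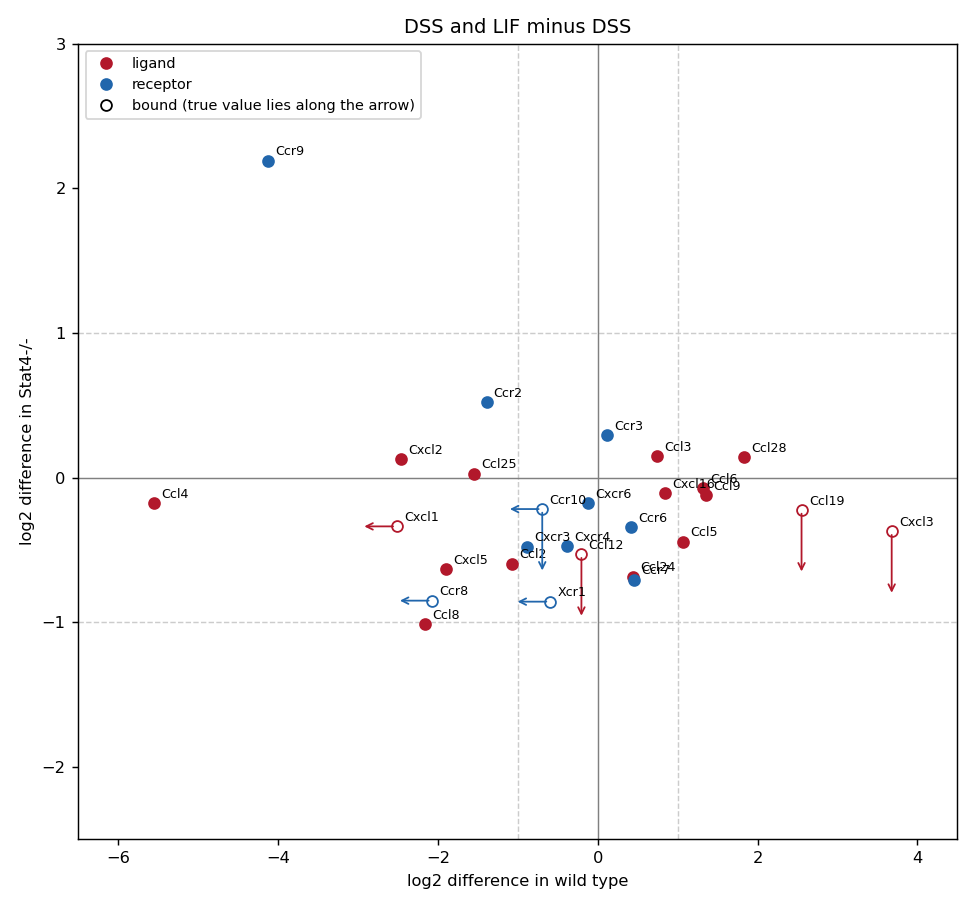
Log2 difference of DSS and LIF minus DSS in wild type (x axis) against that in Stat4-/- (y axis), drawn as in the plot of genotype. Members spread between −5.55 and 3.68 along the x axis, and along the y axis Ccr9 (2.19) and Ccl8 (−1.01) are the measured members past 2-fold.

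Other genes of the same system were counted from lists that do not overlap the members. Of 16 other chemokines and receptors 15 were matched. Those measured under DSS were 7, of which none was higher and 1 lower in Stat4-/-, with a median of 0.04, and under DSS and LIF 5, none higher and 1 lower, with a median of −0.58. For LIF in wild type 1 of 5 was higher and 2 lower, with a median of 0.32, and in Stat4-/- none of 6 was higher and 1 lower, with a median of −0.29. The gene lower with LIF in both genotypes was Pf4, the platelet factor 4 ligand, with log2 differences of −1.17 and −1.32. Cx3cr1, the receptor of Cx3cl1, was higher by 1.52 with LIF in wild type and had −1.71 for genotype under DSS and LIF.

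Of 32 genes that act downstream of chemokine receptors (G protein subunits, receptor kinases, arrestins, small GTPases, integrins and RGS proteins) all were matched. Under DSS 1 of 26 was higher and 2 lower in Stat4-/-, with a median of −0.12, and under DSS and LIF 2 of 23 were higher and 8 lower, with a median of 0.00. For LIF in wild type 3 of 23 were higher and 6 lower, with a median of 0.23, and in Stat4-/- 1 of 25 was higher and none lower, with a median of −0.08. Rgs16, which limits G protein signalling, was higher by 1.29 in Stat4-/- under DSS and by at least 4.19 under DSS and LIF.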

How the data were processed

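Spot intensity values were deposited by the authors as Agilent Feature Extraction output. The software version is 11.0.1.1 in the headers, while the submitters' processing notes name 9.1. The processed signal is background-subtracted per the file headers. The authors' deposited table of log2 values has column medians of 3.31, 2.54, 3.31 and 3.31. Its log2 scale follows from correlations of between 0.970 and 0.992 with the scanner values, how it was normalized and centred is unknown, and it served as an alternative. Each array held 43020 spots of 39429 non-control probes. Outlier spots were left out, log2 signals of a probe's spots were averaged and the array's 75th percentile was subtracted. A probe was called above background if the software marked 50% or more of its spots, and a gene took its brightest probe over the 4 arrays. RefSeq accessions, without versions, named 69.1% of probes through a table of assembly GRCm38.p6, which also gave the promoters. The number of arrays, 1 per group, limits the precision. The median SD of a log2 difference over spots lay from 0.104 to 0.115 and measures variation within an array only.

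Values on all 4 arrays are given for members at least 2-fold apart in some comparison, by measurement or bound, and for members whose receptor or ligand is discussed. The members, lists and tests were chosen with earlier results of these data known. The calling of measured differences was tested on simulated data. Bounds did not arise in that simulation and were not tested by it. Alternatives were normexp (limma 3.58.1 in R 4.3.3, on median signals because no mean signal column was used) with an offset of 50 and without, scaling to the median of probes above background on all 4 arrays, quantile scaling, the deposited table, the mean over probes, no background filter, genes above background on all 4 arrays, outlier spots kept and, chosen after seeing the data, differences centred on the median of all genes. Other steps used Python 3.11.15 with numpy 2.4.6 and pandas 2.3.3.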

Additional observations from a re-analysis of the deposited data

Results flagged for a closer look

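Cxcl3 had genotype differences of opposite sign under DSS and under DSS and LIF. Its log2 difference of Stat4-/- minus wild type was 1.58 under DSS and at most −2.47, a bound, under DSS and LIF. Ccr9 moved in opposite directions with LIF depending on genotype, by −4.13 in wild type and by 2.19 in Stat4-/-. With 1 array in each group neither difference between groups was tested, and both rest in part on the wild-type array with DSS and LIF.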

How the results depend on the processing

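Several counts and medians of members moved with the processing. With normexp at an offset of 50, members higher were 3 for LIF in wild type, 0 for LIF in Stat4-/-, 0 for genotype under DSS and 3 for genotype under DSS and LIF, members lower were 2 for LIF in Stat4-/- and 4 for genotype under DSS and LIF, and the medians were −0.34 for LIF in wild type, −0.085 for genotype under DSS and −0.17 under DSS and LIF. Without the offset, members higher were 4 for LIF in wild type, 0 for LIF in Stat4-/- and 3 for genotype under DSS and LIF, members lower with LIF in Stat4-/- were 7, and the medians were −0.13, −0.51 and −0.35 for those 3 comparisons. Without a background filter, higher and lower members numbered 14 and 14 for LIF in wild type, 4 and 4 for LIF in Stat4-/- and 11 and 14 for genotype under DSS and LIF, 11 were higher for genotype under DSS, and the medians were 0.12, −0.33, −0.35 and 0.10. Among genes above background on all 4 arrays, fewer of which can be called, members higher were 4 for LIF in wild type and 2 for genotype under DSS, with medians of −0.12 and −0.56. The median for LIF in wild type was −0.11 with quantile scaling and −0.14 with scaling to the median of probes above background on all 4 arrays, which gave −0.50 for genotype under DSS and LIF. The mean over probes gave medians of 0.12 for LIF in wild type, −0.32 for LIF in Stat4-/- and −0.24 for genotype under DSS, and the deposited table gave 2 members lower with LIF in Stat4-/-. Centred on the median of all genes, LIF in wild type had 4 members higher and 9 lower with a median of −0.57, and genotype under DSS and LIF 7 higher and 5 lower with a median of −0.19. Ccl5 for LIF in wild type turned to −0.042 with the offset, and Ccl8 for LIF in Stat4-/- to 0.086 without it; apart from the filters and the centring, whose construction sets the genes or the zero, the cause was not tested. Low signal on the wild-type array with DSS and LIF limits what can be measured there. No paired analysis was possible because the labels give 1 array per group and no replicate numbers, and no replicate could be left out.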
